A study of Mus musculus with 16 samples.

Results

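The ATP11A/C KD libraries are 4 of the 16 RNA samples of the series, and they were compared here with the 4 samples of the Parental line across all expressed genes. Both groups are RAW264.7, a mouse line of myeloid cells that behave like macrophages, grown in complete medium with no stimulus named and collected the day after plating. Samples were taken by their genotype label, ATP11A/C KD or Parental, and the 4 CDC50A KD and 4 ORP5/8 KD samples served only to show where ATP11A/C KD differed from another knockdown of the same line. Names of the KD libraries start with "sh", an abbreviation left unexplained in the labels. The labels name no construct for Parental and do not say whether a KD group is 1 clone, and a non-targeting control was not analysed here, so the loss of the named genes and the making of the KD line cannot be told apart. Nothing in the labels says that the 4 samples of a group came from separate cultures, so the p-values measure the spread between these samples, which may be technical. Of 55573 gene records, 13107 had enough counts to be tested, and they held 99.97% of all counts. Total counts ran from 27885958 to 37353063 in the Parental samples and from 31771196 to 40927250 in the ATP11A/C KD samples.

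The flippase ATP11A, one of the P4-type ATPases, uses ATP to move phosphatidylserine and phosphatidylethanolamine from the outer to the inner leaflet of the plasma membrane. It needs the subunit CDC50A, encoded by Tmem30a, to leave the endoplasmic reticulum. Osbpl5 and Osbpl8 encode ORP5 and ORP8, which take new phosphatidylserine out of the endoplasmic reticulum and hand it to the plasma membrane in exchange for phosphoinositides. Phosphatidylserine on the outer leaflet marks dying cells for uptake, and on the inner leaflet it holds signalling proteins at the membrane. Macrophages meet it from both sides, as cells that expose it and as cells that engulf others that do.

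Atp11a was low in every ATP11A/C KD sample. Levels are given as CPM, counts divided by the scaled size of each library, and they compare 1 gene between samples, not genes with each other. Atp11a (ENSMUSG00000031441.15; chromosome 8, 12757014 to 12868728, plus strand of GRCm38) stood at 58.7, 62.4, 61.5 and 63.03 CPM in the Parental samples and at 22.6, 20.6, 21.1 and 21.2 CPM in ATP11A/C KD. The groups lay far apart, and the mean fell from 61.4 ± 1.91 to 21.4 ± 0.843 CPM (SD, n = 4), a log2 fold change of -1.52 ± 0.044 (SE, edgeR adjusted p = 1.09e-16) that left 34.9% of the Parental level. In CDC50A KD the gene stood at 43.1 ± 1.36 and in ORP5/8 KD at 53.3 ± 0.604 CPM, so ATP11A/C KD was also lower than both (log2 -1.01 ± 0.044 and -1.31 ± 0.044).

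The genes named by the other 2 labels were measured in the same samples. Osbpl8 stood at 333, 335, 346 and 335 CPM in Parental and at 116, 124, 133 and 136 CPM in ATP11A/C KD, a fall to 37.6% (log2 -1.41 ± 0.056, edgeR adjusted p = 2.33e-14) although the label does not name this gene. Its mean was 116 ± 4.41 CPM in CDC50A KD and 99.1 ± 8.17 CPM in ORP5/8 KD, the group whose label does name it. ATP11A/C KD was higher than ORP5/8 KD by 0.36 ± 0.055 on the log2 scale, and its difference from CDC50A KD did not pass (0.13 ± 0.055). Osbpl8 was thus low in all 3 KD groups, and every direction given below is for the samples labelled ATP11A/C KD. Tmem30a stood at 165, 161, 165 and 155 CPM in Parental and at 126, 158, 141 and 143 CPM in ATP11A/C KD. The groups overlapped in 1 sample and the fall was small (log2 -0.19 ± 0.061, edgeR adjusted p = 0.0196), a call that was lost without Parental sample 1 or without ATP11A/C KD sample 1 or 3 (edgeR adjusted p = 0.0572 to 0.0717). Osbpl5 had 2 to 13 counts in each ATP11A/C KD sample and 2 to 7 in each Parental sample, and was too low to test.

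**Figure D1:**
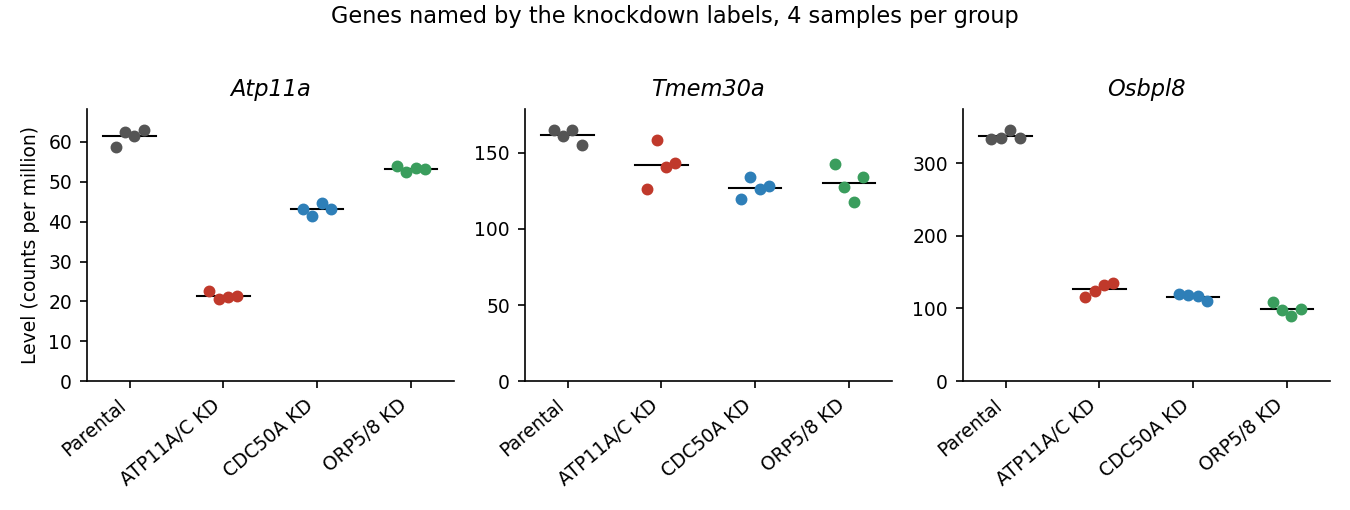
CPM of Atp11a, Tmem30a and Osbpl8 in each of the 16 samples, with 1 point per sample, 1 column per group and a bar at the group mean; every vertical axis starts at 0. Atp11a is lowest in ATP11A/C KD, and Osbpl8 is low in all 3 KD groups.

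Against Parental, 4926 genes changed at an edgeR adjusted p under 0.05, which is 37.6% of those tested. Of these, 2276 rose (17.4%) and 2650 fell (20.2%). Counts of list members against Parental below are to be read beside these 2 shares. Most changes were small: 3658 of the called genes, 74.3%, moved by less than 1.5-fold. At least 2-fold changes were fewer and mostly downward, with 188 genes higher (1.43%) and 465 lower (3.55%). With only genes of at least 1 CPM in 4 samples tested, 105 were at least 2-fold higher. The median log2 fold change over all genes tested was 0.01, which the scaling sets near 0 by construction. In 4364 genes (33.3%) the 4 and 4 samples did not overlap.

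**Figure D2:**
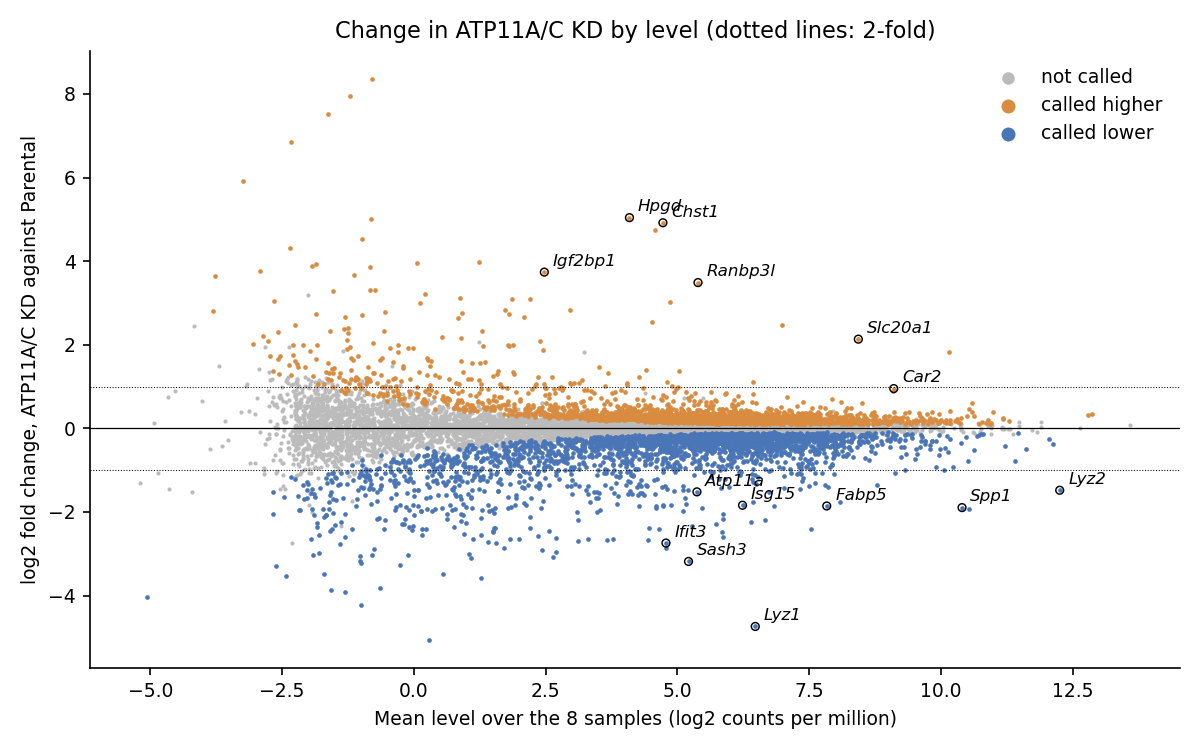
Log2 fold change of ATP11A/C KD against Parental (vertical) by mean level over the 8 samples (horizontal, log2 CPM) for the 13107 genes tested, of which 1 at 0 in both groups is not drawn, with called genes in colour and genes named in the text labelled. The 465 genes called at least 2-fold lower outnumber the 188 called at least 2-fold higher, and Lyz1 lies below every other gene of similar or higher level.

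Lysozyme showed the deepest fall among genes of at least 10 CPM. Lyz1 encodes one of the 2 mouse lysozymes, enzymes that cut bacterial cell walls. It stood at 158, 179, 179 and 173 CPM in Parental and at 6.58, 6.76, 6.07 and 6.36 CPM in ATP11A/C KD, 3.75% of the Parental level (log2 -4.74 ± 0.062, edgeR adjusted p = 1.53e-22). Lyz2, its abundant macrophage neighbour on chromosome 10, stood at 6827, 7449.8, 7447 and 7105 CPM in Parental and at 2543, 2776, 2472 and 2537 CPM in ATP11A/C KD, a fall to 35.8%. Neither gene's groups overlapped, and both were lower in ATP11A/C KD than in ORP5/8 KD (log2 -2.12 and -0.69). Against CDC50A KD the difference was -0.61 ± 0.069 for Lyz1 and -0.15 ± 0.043 for Lyz2, and the latter was not called without sample 3 of either group.

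Sash3, which encodes an adaptor of lymphocyte signalling, followed at 63.9, 67.9, 67.1 and 68.4 CPM in Parental against 7.84, 7.18, 7.37 and 6.95 CPM in ATP11A/C KD. The 2 groups lay far apart, and the level in ATP11A/C KD was 10.98% of Parental. In CDC50A KD the gene was as low (8.23 ± 0.996 CPM), whereas ORP5/8 KD kept 52.9 ± 1.78 CPM. Among protein-coding genes with at least 10 CPM in Parental, at least 10 counts in ATP11A/C KD and no overlap, the other genes with the deepest falls were the chemokine Ccl5 (11.2 to 1.34 CPM), Acod1, the enzyme that makes itaconate (48.3 to 6.68 CPM), Layn, a hyaluronan receptor (11.6 to 1.48 CPM), Plxdc1 (14.9 to 2.30 CPM) and Cd200r4 (11.2 to 1.84 CPM). Flt1, a receptor for vascular endothelial growth factor, fell from 42.3 to 7.90 CPM, and Sptbn1, a spectrin of the membrane skeleton, from 36.9 to 7.01 CPM. The remaining 6 of the 15 deepest falls under these conditions were interferon-stimulated genes: Ifit3, Zbp1, Ifi211, Rsad2, Siglec1 and Slfn4. Of Ifi211's transcript, 63.6% of the 75-base windows also occur in other genes, so its counts may be split among them.

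Among genes that rose, Hpgd and Chst1 stood apart. Hpgd encodes the dehydrogenase that inactivates prostaglandin E2. It stood at 1.20, 0.903, 0.974 and 0.934 CPM in Parental and at 28.2, 36.8, 32.1 and 35.4 CPM in ATP11A/C KD, 33.004-fold higher (log2 5.04 ± 0.117, edgeR adjusted p = 4.40e-18). Chst1, a sulfotransferase that puts sulfate on keratan chains, stood at 1.75, 1.72, 1.66 and 1.63 CPM in Parental and at 60.3, 46.1, 48.2 and 50.4 CPM in ATP11A/C KD, 30.3-fold higher (log2 4.92 ± 0.118). For both genes every ATP11A/C KD sample lay far above every Parental sample. Both were higher still in CDC50A KD (56.4 and 89.7 CPM) and lower in ORP5/8 KD (8.48 and 35.95 CPM).

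Ranbp3l, which exports Smad proteins from the nucleus, rose from 6.87 ± 0.763 to 77.1 ± 5.87 CPM. Slc20a1, a phosphate importer that also serves as a retrovirus receptor, stood at 132, 126, 129 and 127 CPM in Parental and at 539, 578, 571 and 567 CPM in ATP11A/C KD. The samples within each group lay close together, and the groups were 4.39-fold apart. Igf2bp1 and Igf2bp3, which bind and stabilise mRNAs and are mostly fetal genes, rose from 0.764 to 10.4 and from 1.92 to 13.7 CPM. Trp53i11 rose from 6.37 to 51.7 CPM. Smaller rises of 2.13-fold to 2.75-fold were seen for Dmwd, Bmf, a BH3-only killer protein, Sort1, the sorting receptor sortilin, Kyat3, Ctse, an aspartic protease of endosomes, Lzts2, Prr5, a subunit of the mTORC2 complex, and Phlda3, a p53 target that blocks Akt at the membrane. Stc1, the secreted hormone stanniocalcin, had no count in any Parental sample and 34 to 52 counts in each ATP11A/C KD sample, at least 49.9-fold higher when the Parental level is set at 3 counts over the group. Cntnap5c likewise went from 0 counts to 30 to 33 per sample, at least 37.6-fold higher on the same floor. Tmc3, with 6 to 12 counts in each Parental sample, had none in ATP11A/C KD, at least 13.2-fold lower. These limits cover counting error only.

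Ranked by the difference in CPM rather than by ratio, other genes led. The largest losses were of Lyz2, Gpnmb, Spp1, Ctsb, Actb, Fth1, Ftl1 and Ctsd. Gpnmb, a glycoprotein of lysosomes and phagosomes, stood at 2361, 2444, 2282 and 2363 CPM in Parental and at 666, 612, 605 and 610.3 CPM in ATP11A/C KD. Spp1, the secreted matrix protein osteopontin, stood at 2101, 2114, 2074 and 2252 CPM in Parental and at 496, 612, 596 and 591 CPM in ATP11A/C KD. They kept 26.4% and 26.9% of their level, with no overlap. The largest gains were of mt-Co1, mt-Cytb, mt-Nd1, Slc20a1, Rpsa, Car2, Pabpc1 and Atp1b3. Car2, carbonic anhydrase 2, rose from 376 ± 8.12 to 727 ± 12.7 CPM, and Atp1b3, a sodium pump subunit, from 382 ± 11.8 to 710.4 ± 39.8 CPM. The ferritin light chain gene Ftl1 shares 69.9% of its 75-base windows with other genes, most of them with a pseudogene, so its counts are uncertain.

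Interferon-stimulated genes fell almost as a block. Type I interferon signals through the Jak1 and Tyk2 kinases to a complex that holds Stat2 and Irf9, which binds the interferon-stimulated response element in promoters and turns on antiviral genes. RAW264.7 cells hold these genes at a measurable level without added interferon. Of 71 such genes tested, 69 fell, 43 of them at least 2-fold, 1 rose and 1 did not pass, against 20.2% of all genes lower. The median log2 fold change of the list was -1.14, against 0.01 for all genes.

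Effectors, sensors and regulators all took part. Ifit3, a partner of Ifit1, stood at 46.9, 49.4, 48.1 and 47.3 CPM in Parental and at 6.43, 8.02, 6.58 and 7.69 CPM in ATP11A/C KD (14.98% of Parental). Rsad2, the enzyme viperin that makes a chain-terminating nucleotide, stood at 104, 101, 98.4 and 96.5 CPM in Parental and at 15.5, 16.4, 17.7 and 16.4 CPM in ATP11A/C KD (16.5%). Isg15, a ubiquitin-like modifier, stood at 111, 124, 118 and 119 CPM in Parental and at 31.4, 34.9, 31.9 and 33.6 CPM in ATP11A/C KD (27.96%). None of these groups overlapped. Irf7, the factor that amplifies interferon production, fell from 632 ± 18.3 to 249 ± 14.4 CPM (log2 -1.34 ± 0.062), and Stat2 from 122 ± 3.59 to 49.96 ± 1.76 CPM (log2 -1.29 ± 0.054). Slfn4 was more scattered, with 276, 176, 410.04 and 391 CPM in Parental and 28.1, 85.02, 75.97 and 45.9 CPM in ATP11A/C KD. Sample 1 of ATP11A/C KD was the lowest and the groups still did not overlap. The exceptions were Ifi27, which encodes a mitochondrial protein and rose from 28.9 ± 2.48 to 51.6 ± 1.08 CPM, and Ly6e, at 2059 ± 67.7 and 1882 ± 141 CPM (edgeR adjusted p = 0.0665). Ifit3 shares 41.1% of its 75-base windows with Ifit3b, and Oas1a 47.6% with Oas1g, so levels within these pairs are uncertain. All 4 of these genes fell.

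The promoters of several of these genes show the response element directly. The following 70-base stretches lie upstream of the transcription start in RefSeq (GRCm38.p6), are written 5′ to 3′ on the gene's own strand, and carry the motif GAAANNGAAA in capitals, which reads as TTTC blocks where it lies on the opposite strand. They were chosen from the genes that fell and hold the motif, to show its forms.
Isg15: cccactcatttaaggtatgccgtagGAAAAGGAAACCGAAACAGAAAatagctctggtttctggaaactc
Ifit3: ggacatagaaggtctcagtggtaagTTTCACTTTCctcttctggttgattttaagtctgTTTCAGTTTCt
Ifit1: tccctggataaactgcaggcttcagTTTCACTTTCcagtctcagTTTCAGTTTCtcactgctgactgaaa
Gbp2: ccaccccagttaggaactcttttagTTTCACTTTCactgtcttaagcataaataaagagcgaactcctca
Rsad2: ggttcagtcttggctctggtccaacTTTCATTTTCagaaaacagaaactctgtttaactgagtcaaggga
Cxcl10: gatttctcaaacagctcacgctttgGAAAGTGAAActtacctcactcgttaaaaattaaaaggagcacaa
In order, the stretches lie at chr4:156200852-156200921 (minus strand), chr19:34583348-34583417 (plus strand), chr19:34640760-34640829 (plus strand), chr3:142620579-142620648 (plus strand), chr12:26456528-26456597 (minus strand), chr5:92349058-92349127 (minus strand).
Isg15 holds 3 overlapping matches, Ifit3 and Ifit1 hold 2 each, and Gbp2, Rsad2 and Cxcl10 hold 1. Gbp2 encodes a guanylate-binding protein that attacks pathogen vacuoles, and its mRNA fell from 5.11 to 0.773 CPM. Cxcl10 encodes a chemokine for T cells, and its mRNA fell from 18.4 to 4.80 CPM. Ifit1, which binds the ends of viral RNA, fell from 64.9 to 12.9 CPM. The motif was searched on both strands in windows from 250 bases before to 50 bases after the start. It is present in 33 of the 55 interferon-stimulated genes with such a window (60.0%), against 376 of 9279 tested genes with a window (4.05%). A gene was counted when any of its windows held the motif. Counted by window instead, the share was 3.44% of all 32851. Among genes at least 2-fold lower that are not in the interferon-stimulated list, 32 of the 297 genes with a window hold it (10.8%). The list was chosen by hand and may leave out other interferon-stimulated genes, so the 297 may include some. The share was 5.8% in genes lower by less than 2-fold, 3.04% in genes not called, 3.34% in genes higher by less than 2-fold and 3.42% in genes at least 2-fold higher. A match describes the letters only and shows no binding.

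Genes listed for interferon receptors, their signalling and nucleic acid sensing moved less than the interferon-stimulated genes. Of 25 tested, 12 fell and 4 rose, with a median log2 fold change of -0.12. No gene for an interferon itself was among the 25. Trex1, which degrades cytosolic DNA, fell from 114 to 67.3 CPM, though 93% of its 75-base windows are shared with the neighbouring Atrip. The kinase gene Ikbke fell from 43.5 to 27.6 CPM and Irf1 from 35.99 to 23.6 CPM. Tmem173, the DNA-sensing adaptor STING, rose from 40.2 ± 1.85 to 56.3 ± 1.99 CPM, and the receptor genes split, with Ifnar2 higher (log2 0.24) and Ifnar1 lower (log2 -0.21). The DNA sensor gene Cgas (log2 -0.08) and the adaptor gene Mavs (log2 -0.07) did not pass the test. The RNA sensor genes Ifih1, Ddx58 and Dhx58, counted in the interferon-stimulated list, fell (log2 -1.21, -1.06 and -1.10).

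**Figure D3:**
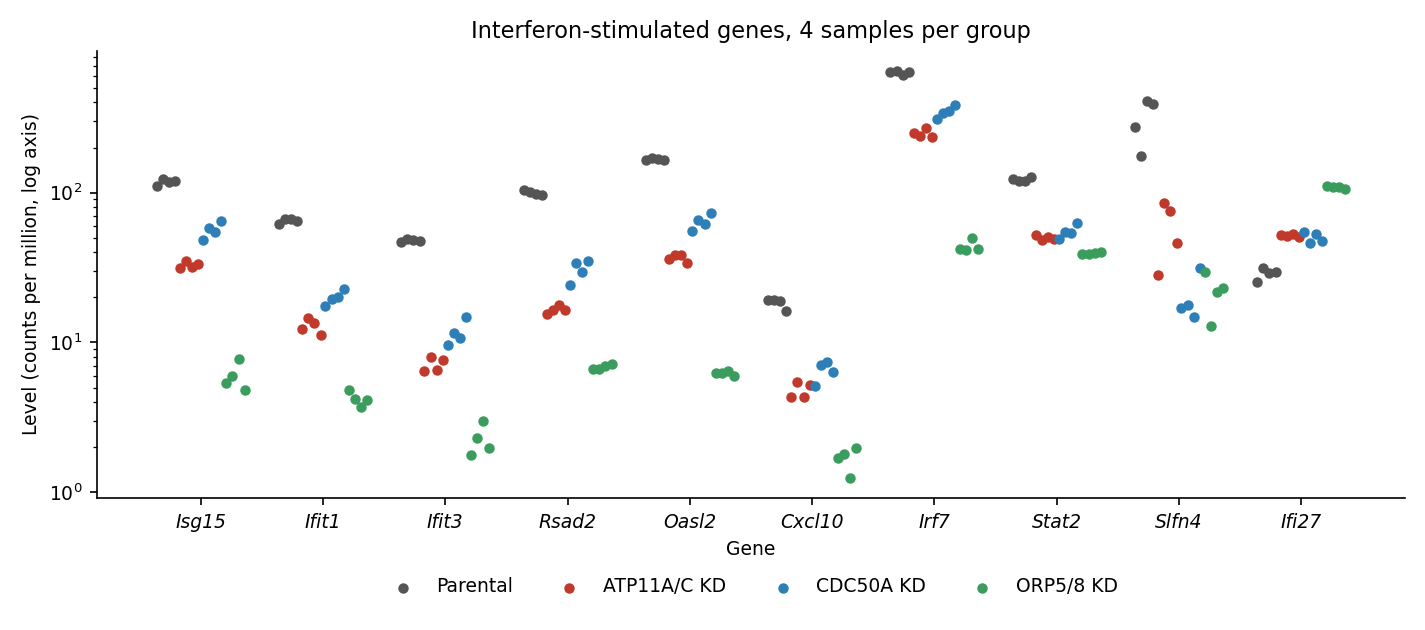
CPM (log axis) of 10 interferon-stimulated genes in each of the 16 samples, with 1 point per sample and colours for the 4 groups. In every gene but Ifi27 and Slfn4 the ATP11A/C KD points lie below Parental and above ORP5/8 KD; in Ifi27 they lie above Parental and below ORP5/8 KD.

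The interferon-stimulated genes also separated ATP11A/C KD from the other 2 knockdowns. Against CDC50A KD, 53 of the 71 were lower and 2 higher in ATP11A/C KD, with a median log2 difference of -0.37, where 13.5% of all genes tested were lower and 12.7% higher. Against ORP5/8 KD, 66 were higher and 1 lower, with a median of 1.247, where 20.4% of all genes were higher and 18.2% lower. Isg15 stood at 32.98 CPM in ATP11A/C KD, 56.5 in CDC50A KD and 5.97 in ORP5/8 KD (log2 -0.78 ± 0.088 against CDC50A KD and 2.46 ± 0.105 against ORP5/8 KD). Slfn4 went the other way against CDC50A KD (log2 1.52 ± 0.323).

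Inflammatory genes fell in part. Of 22 cytokine, chemokine and enzyme genes, 15 fell and 3 rose, with a median log2 fold change of -0.84. Acod1 stood at 48.99, 46.8, 48.5 and 48.96 CPM in Parental and at 7.03, 6.58, 6.87 and 6.23 CPM in ATP11A/C KD, Nos2, the inducible nitric oxide synthase, fell from 7.49 to 1.71 CPM, and Il1rn, the interleukin-1 receptor antagonist, from 54.6 to 13.9 CPM. The chemokine genes Ccl4, Ccl9 and Ccl3 fell to 34.2%, 51.5% and 57.8% of Parental. Tnf did not pass (65.7 and 59.1 CPM, edgeR adjusted p = 0.101), and Cd80, Il18 and Tnfsf9 rose by at most 1.255-fold. These 3 calls were not firm: that of Cd80 was lost without Parental sample 1 or 2 or ATP11A/C KD sample 2 (edgeR adjusted p = 0.0768 to 0.0914), that of Il18 without ATP11A/C KD sample 2 (edgeR adjusted p = 0.0574), and that of Tnfsf9 without Parental sample 1 or 4 or ATP11A/C KD sample 3 (edgeR adjusted p = 0.0699 to 0.0865). Of 26 genes for NF-kB subunits and their feedback, 9 fell (34.6%) and 3 rose (11.5%), with a median of -0.09. Of all genes, 20.2% fell and 17.4% rose. Tnip3 fell the most of them (log2 -0.63), while Nfkbia (log2 -0.01) and Rela (log2 0.09) did not pass.

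Antigen presentation genes moved in 2 directions. MHC class I and its loading genes, which display peptides from inside the cell, fell: 20 of 24 were lower and 2 higher, with a median log2 fold change of -0.50. The peptide transporter gene Tap1 fell from 96.9 to 55.1 CPM, the immunoproteasome gene Psmb9 from 43.3 to 22.9 CPM, and B2m, the shared light chain, from 859 to 611 CPM. The 2 that rose, Calr and Pdia3, are also general chaperones of the endoplasmic reticulum. The call of Calr was lost without Parental sample 3 or 4 or ATP11A/C KD sample 1 (edgeR adjusted p = 0.0718 to 0.103). In MHC class II, 5 of 12 rose and 1 fell. Without Parental sample 4 or ATP11A/C KD sample 1 only 3 rose, and none fell without Parental sample 3 or without ATP11A/C KD sample 2, 3 or 4. Cd74, the invariant chain, rose from 220.5 ± 15.8 to 270.2 ± 34.01 CPM (not called without ATP11A/C KD sample 1, edgeR adjusted p = 0.0506), while the class II chains H2-Ab1 and H2-Aa lay at 0.232 and 0.0186 CPM in ATP11A/C KD and at 0.0675 and 0.0610 CPM in Parental, near 0 in both.

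Receptors that sense or bind microbes were lower. Of 22 opsonic and pattern-recognition receptors, 19 fell and none rose (none at an unadjusted edgeR p under 0.05 or by DESeq2 either), with a median log2 fold change of -0.62 (20.2% of all genes were lower). Msr1, scavenger receptor A, stood at 321, 316, 334 and 317 CPM in Parental and at 110.4, 135, 123 and 136 CPM in ATP11A/C KD, with no overlap and 39.2% of the level left. The lectin genes Clec4e and Clec4d, whose products bind mycobacterial and fungal glycolipids, fell to 46.5% and 48.5%. The anaphylatoxin receptor genes C3ar1 and C5ar1 fell to 48.1% and 48.8%, and the Fc receptor genes Fcgr4, Fcgr2b, Fcgr3 and Fcgr1 all fell (log2 -1.40, -0.74, -0.45 and -0.42). Itgam, a chain of the complement receptor Mac-1, fell to 68.96%, but 71.7% of its windows are shared with an overlapping predicted gene. Its partner Itgb2 fell to 66.2%. Fcer1g (log2 -0.13) and Scarb1 (log2 0.00) did not pass. The list differed less from the other knockdowns. Against CDC50A KD, 6 of the 22 were lower and 1 higher (median log2 -0.08), where 13.5% of all genes were lower and 12.7% higher. Against ORP5/8 KD, 5 were lower and 6 higher (median -0.02), where 18.2% of all genes were lower and 20.4% higher.

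Of 24 Toll-like receptors and adaptors, 11 fell (45.8%, against 20.2% of all genes) and 5 rose (20.8%, near the 17.4% of all genes). Tlr8 stood at 4.68, 5.26, 4.98 and 4.37 CPM in Parental and at 0.816, 1.14, 0.744 and 0.992 CPM in ATP11A/C KD. Tlr3, the receptor for double-stranded RNA, fell to 50.7%, and Tlr13, Tlr4 and Tlr7 fell to 64.96%, 75.4% and 76.9%. Tlr1, Tlr9 and Ly86 rose by 1.36-fold, 1.20-fold and 1.35-fold, and Tlr2 (log2 0.09) and Myd88 (log2 0.03) did not pass.

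Genes of the lysosome fell broadly and mostly by less than 2-fold. Of 43 cathepsins and other hydrolases, 29 fell and 6 rose (median log2 -0.25), and of 35 genes for lysosomal membrane proteins and the proton pump, 24 fell and 2 rose (median -0.26). The second of the rises, Slc15a4, was lost with no filter, with the floor of 1 CPM, with the replicate block, with only the compared groups fitted, and without any of 5 samples in turn (Parental 1 and 3, ATP11A/C KD 1, 3 and 4, edgeR adjusted p = 0.05 to 0.126). Ctsb stood at 3380.2, 3591, 3404 and 3467 CPM in Parental and at 2033, 2078, 1946 and 1985 CPM in ATP11A/C KD. Its groups did not overlap, and 58.1% of the level remained. Ctsd fell from 1842 ± 67.6 to 1079 ± 59.03 CPM and Ctss, the protease that trims the invariant chain, from 855 to 429 CPM. Gla, the galactosidase missing in Fabry disease, fell to 54.7% of Parental. In the membrane group, Slc11a1, the phagosomal metal transporter Nramp1, fell to 50.6%, Cd63 to 54.98%, the cholesterol carrier Npc2 to 65.7% and the pump subunit Atp6v1a to 65.9%. The exceptions were Ctse (17.7 to 38.3 CPM) and Sort1 (11.5 to 27.1 CPM), the largest rises among genes over 10 CPM in these lists. Lamp1 (log2 -0.04) did not pass. The median log2 difference of the hydrolase list was -0.02 against CDC50A KD and -0.15 against ORP5/8 KD. That of the membrane and pump list was 0.007 and -0.008.

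Neighbouring programmes of the macrophage moved the same way. Of 17 genes of the osteoclast programme, which RAW264.7 cells can enter, 12 fell and 3 rose (median log2 -0.45): Dcstamp, needed for cell fusion, fell from 18.2 to 8.75 CPM, and the pump subunit Atp6v0d2 from 5.62 to 1.52 CPM, whereas Nfatc1, the master factor, rose from 99.2 to 126 CPM. Of 14 iron genes, 10 fell and 1 rose. Hmox1, heme oxygenase, fell from 139 to 80.004 CPM and Steap3, an iron reductase, from 55.5 to 29.9 CPM, while the ferroxidase gene Cp rose from 22.4 to 33.2 CPM. Among 28 lineage markers and transcription factors, 16 fell and 3 rose. Maf stood at 1.85, 2.55, 3.46 and 1.63 CPM in Parental and at 0.0495, 0.0901, 0.120 and 0 CPM in ATP11A/C KD, with no count in the last. Klf6 and Bhlhe41 fell to 58.5% and 53.6%, Spi1 did not pass (log2 -0.15), and Adgre1, the F4/80 antigen, rose from 67.3 ± 2.16 to 104 ± 5.22 CPM.

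Several genes listed as moving lipids across membranes fell. Of 10 flippases and CDC50 subunits, 5 fell (50%, against 20.2% of all genes), 2 of them at least 2-fold, and none rose. None rose at an unadjusted edgeR p under 0.05 or by DESeq2 either. Without Parental sample 1 or ATP11A/C KD sample 3, 3 fell. The 5 and the 2 both include Atp11a, the gene the label names, so the 50% does not describe the family apart from the knockdown. Besides Atp11a and Tmem30a, those that fell were Atp8b4 (161 to 132 CPM), Atp10d (35.4 to 32.03 CPM) and Atp9a (0.542 to 0.214 CPM). Atp9a, the other member at least 2-fold lower, was at very low levels. The call of Atp10d was kept in only 1 of the 8 fits that left out a sample, the one without ATP11A/C KD sample 1 (edgeR adjusted p = 0.0599 to 0.133 in the others). Atp11b, which encodes a related flippase, stood at 83.7 ± 0.825 CPM in Parental and at 85.9 ± 7.17 CPM in ATP11A/C KD and did not pass. Scramblases let lipids cross the membrane in both directions. Of 13 genes for scramblases or their partner proteins, 8 fell (61.5%) and 2 rose (median log2 -0.22). Those that fell at least 2-fold were 2 genes with a Parental mean of 2.39 CPM or less. Only 1 of the 13 rose without Parental sample 4 or ATP11A/C KD sample 2. The calcium-activated Ano6 fell from 159 ± 3.83 to 137 ± 10.8 CPM and Plscr3 from 29.9 to 21.2 CPM. Atg9a, a scramblase of autophagy, rose from 67.0003 to 79.9 CPM, though 40.7% of its windows are shared with a predicted gene, and the caspase-cleaved Xkr8 did not pass (log2 -0.10).

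In lipid synthesis and transfer, 17 of 28 genes fell (60.7%, against 20.2% of all genes), 3 of them at least 2-fold, and 2 rose (median log2 -0.16). Ptdss1, which makes phosphatidylserine from phosphatidylcholine, fell from 85.4 ± 2.79 to 73.4 ± 2.88 CPM, while Ptdss2 (41.6 and 41.6 CPM) and the decarboxylase gene Pisd (52.5 and 52.3 CPM) did not pass. Efr3b, an anchor of the lipid kinase PI4KA at the plasma membrane, stood at 17.8, 17.3, 16.1 and 17.5 CPM in Parental and at 5.81, 4.87, 5.59 and 5.40 CPM in ATP11A/C KD. It kept 31.6% of its level with no overlap. The tether Esyt1 fell from 164 to 107 CPM, and Pitpnm2, which carries phosphatidylinositol at contact sites, rose from 17.3 to 29.4 CPM.

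Of 28 genes for the recognition and uptake of dying cells, 14 fell (50%, against 20.2% of all genes) and 5 rose (17.9%, near the 17.4% of all genes). Gas6, the bridging ligand of the TAM receptor kinases, stood at 42.4, 39.3, 39.4 and 44.4 CPM in Parental and at 12.4, 11.2, 12.7 and 10.2 CPM in ATP11A/C KD. Axl, its receptor, fell from 3.30 ± 0.324 to 0.560 ± 0.180 CPM. The groups did not overlap for either gene, and Gas6 was higher than in CDC50A KD (6.93 CPM) and far lower than in ORP5/8 KD (70.5 CPM). Pros1, the second bridging ligand, fell to 65.4%, and Trem2, Cd300a and Lrp1 fell to 72.7%, 72.5% and 75.2%. The engulfment factor Dock1 fell to 60.4%, but Elmo1, its partner, rose 1.14-fold. Havcr2, the receptor TIM-3, rose from 30.97 ± 1.65 to 48.5 ± 2.94 CPM, and Mfge8 and Itgb5, a ligand and an integrin of the same route, rose 1.33-fold and 1.54-fold.

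The cytoskeleton of the phagocytic cup was lower in 20 of 35 genes and higher in 4 (median log2 -0.15). Myo10, Gsn and Myo1e, 2 myosins and the filament-severing gelsolin, fell to 54.4%, 56.6% and 63.4%. Actb stood at 5165, 5286, 4926 and 4803 CPM in Parental and at 4616, 2911, 3996 and 4159.7 CPM in ATP11A/C KD, with sample 2 lowest and no overlap. Of 14 integrins, 9 fell and 3 rose: Itga4, the alpha chain of VLA-4, fell from 2728 to 2023 CPM and Itgal, part of LFA-1, rose from 19.4 to 33.6 CPM. Against CDC50A KD, 18 of the 35 cup genes were lower in ATP11A/C KD (13.5% of all genes were) and 4 higher (12.7% of all genes). Against ORP5/8 KD 18 were higher (20.4% of all genes) and 4 lower (18.2% of all genes), or 2 without ATP11A/C KD sample 3 or ORP5/8 KD sample 4. In LC3-associated phagocytosis and the NADPH oxidase, 8 of 27 genes were lower than in Parental (29.6%) and 4 higher (14.8%). Of all genes, 20.2% were lower and 17.4% higher. Tecpr1, which conjugates LC3 to damaged membranes, fell from 36.4 to 22.1 CPM, Cybb, the catalytic oxidase subunit, fell to 78.95%, and Map1lc3b rose 1.28-fold. Rubcn did not pass (log2 -0.12). Of 31 genes of canonical autophagy, 8 fell (25.8%) and 4 rose (12.9%), near the 20.2% and 17.4% of all genes. The number higher was 2 without Parental sample 4 or ATP11A/C KD sample 3 and 9 without ATP11A/C KD sample 2. Atg13 and the cargo receptor gene Sqstm1 fell to 78.3% and 78.8%, and Ulk1 did not pass (log2 0.05).

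Among lipid genes the sterol-export branch fell most. LXR is the nuclear receptor pair that turns on cholesterol export, and 14 of its 19 listed targets and partners fell and 1 rose (median log2 -0.55). Rxra, the dimer partner, stood at 25.5, 24.9, 20.8 and 22.9 CPM in Parental and at 10.3, 8.71, 8.35 and 9.55 CPM in ATP11A/C KD. The exporter Abca1 fell to 50.6%, the lipid droplet coat Plin2 to 50.2%, the ester hydrolase Nceh1 to 50.8% and lipoprotein lipase Lpl to 52.8%. Apoe, at 2.10 CPM in Parental, was the member that rose. Cholesterol synthesis changed less: 13 of 25 genes fell and 3 rose, or 1 without ATP11A/C KD sample 1 (median -0.11), with Insig1 and Hmgcs1 at 80.9% and 82.1% of Parental. Fabp5, a fatty acid carrier, stood at 336, 371, 359 and 366 CPM in Parental and at 101, 103, 95.6 and 95.3 CPM in ATP11A/C KD, and Fabp4 fell from 6.83 to 1.10 CPM. Of the 21 genes in the fatty acid list, 11 fell and 3 rose (5 without Parental sample 2), Fasn among the latter (1.18-fold). In phospholipid synthesis and remodelling, 18 of 38 fell and 5 rose. The second count was 3 without Parental sample 4 or ATP11A/C KD sample 1 or 4 and 9 without ATP11A/C KD sample 2. Among those that fell were the phosphatidic acid enzymes Agpat4 (55.6%), Cds1 (61.1%) and Pld1 (log2 -0.99).

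**Figure D4:**
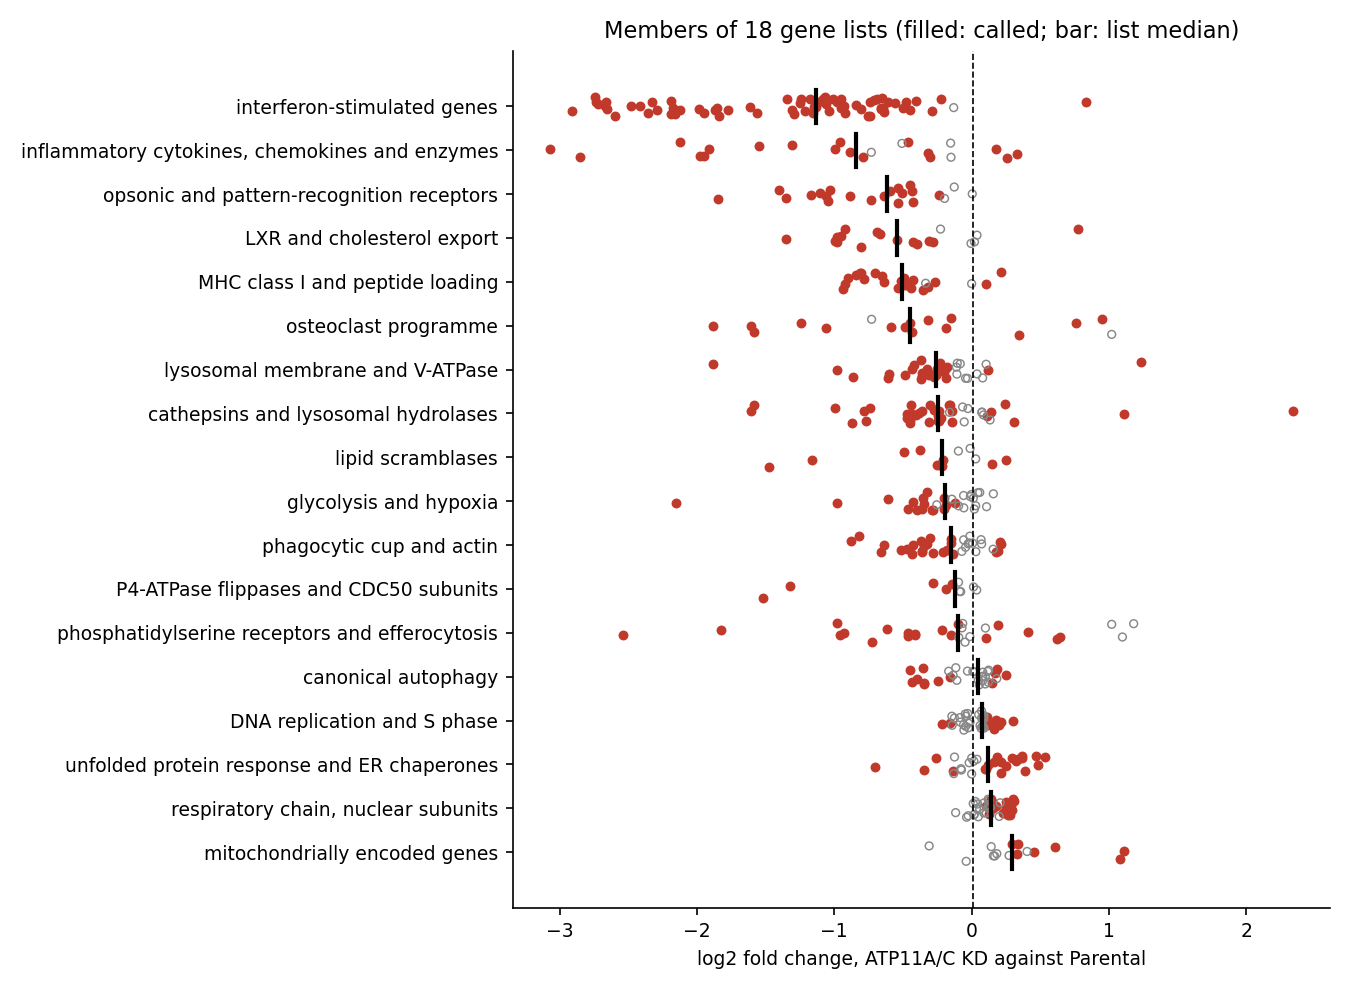
Log2 fold change of ATP11A/C KD against Parental for each tested member of 18 gene lists, with 1 point per gene spread vertically to part them, called genes filled and a bar at the list median; the dashed line is the median of all 13107 genes, 0.01. The interferon-stimulated list has the lowest median, -1.14, and the respiratory chain and mitochondrially encoded lists lie above the line.

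Some groups rose. The unfolded protein response raises chaperones when the endoplasmic reticulum is loaded with client proteins, and 18 of its 31 genes were higher and 4 lower, against 17.4% of all genes higher. The rises were small, with a list median of 0.12. Creld2 stood at 122, 136, 125 and 124 CPM in Parental and at 189.8, 184, 181 and 179 CPM in ATP11A/C KD. Manf rose from 261 ± 7.06 to 364 ± 25.3 CPM, Herpud1 and Pdia6 1.38-fold and 1.29-fold, and Hspa5, the chaperone BiP, 1.14-fold. Ero1l, an oxidase that is also induced by low oxygen, fell from 198 to 122 CPM. Against the other knockdowns the list lay in between, since 22 of 31 were lower than in CDC50A KD (13.5% of all genes were) and 25 of 31 higher than in ORP5/8 KD (20.4% of all genes). In the ATF4 and amino acid list 8 of 26 were higher (30.8%) and 1 lower (3.85%). Leaving out Parental sample 1, 3 or 4 gave 5, 3 and 5 higher, leaving out ATP11A/C KD sample 1 or 3 gave 4 and 5, and 3 were lower without ATP11A/C KD sample 2. Sesn2 went from 25.6 to 35.1 CPM and Shmt2 from 546 to 652 CPM, while Atf4 did not pass (log2 0.04) and Ddit3 fell (log2 -0.50).

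Part of the genes for the respiratory chain rose. Of 43 nuclear ones, 22 rose (51.2%, against 17.4% of all genes) and none fell (median log2 0.14), although 1 was lower without ATP11A/C KD sample 2, and 1 at an unadjusted edgeR p under 0.05 but none by DESeq2. Those that rose include Atp5o of the ATP synthase (1.24-fold), Ndufb5 and Ndufa4 of the first and last complexes of the chain (1.23-fold and 1.22-fold) and Cyc1, cytochrome c1 (1.19-fold). Of 15 genes of the mitochondrial genome, 7 rose (46.7%) and none fell, and none did at an unadjusted edgeR p under 0.05 or by DESeq2. The mitochondrial share of all counts was 1.19 ± 0.0744% in Parental and 1.56 ± 0.194% in ATP11A/C KD (SD, n = 4, exact permutation test, 2-sided p = 0.0286, the smallest that 4 against 4 samples can give), and the samples did not overlap. Without any 1 of the Parental samples p of this test was 0.0571, although the groups still did not overlap. With so few ways to split the samples p moves in coarse steps. mt-Cytb stood at 1311, 1249.6, 1294 and 1078 CPM in Parental and at 1711, 2176, 1719 and 1893 CPM in ATP11A/C KD, and mt-Co1 at 6675, 6389.5, 6456 and 5659.7 against 6888, 9036, 7293 and 8455 CPM. Several of these genes have nuclear copies: 99.5% of the 75-base windows of mt-Co2 and 97.8% of those of mt-Nd3, the members with the largest fitted rises, occur in other genes, so their levels are uncertain. Gm29216, a nuclear copy that shares 96.9% of its windows, mostly with mt-Co1, had 176, 0.691, 1.97 and 5.40 CPM in the ATP11A/C KD samples, with nearly all of it in sample 1; without that sample its call was lost (edgeR adjusted p = 0.703). Cytosolic ribosomal protein genes also took a larger share of counts, 4.28 ± 0.201% in Parental and 4.96 ± 0.163% in ATP11A/C KD (exact permutation test, 2-sided p = 0.0286).

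Growth, stress and metabolism gave mixed counts. Over all genes 17.4% rose and 20.2% fell. Of 40 genes of DNA replication, 12 rose (30%) and 2 fell (5%), all by less than 1.5-fold. Tk1 was the highest at 1.23-fold, and Pcna and Rrm2 were the 2 that fell. Of 34 mitotic genes, 10 fell (29.4%) and 3 rose (8.82%), with Cdc25b and Ndc80 at 66.6% and 75.4% of Parental. Ccnb1 did not pass (log2 0.05). In glycolysis and hypoxia, 16 of 30 fell and none rose, nor did any at an unadjusted edgeR p under 0.05 or by DESeq2. Egln3, an oxygen-sensing hydroxylase, fell from 3.95 ± 0.263 to 0.887 ± 0.134 CPM, Ndrg1 fell to 50.8% and Hif1a to 78.3%, whereas Gapdh and Pkm did not pass. Of 25 p53 targets, 10 rose (40%) and 5 fell (20%), and they did not move together. Eda2r, Phlda3, Sesn1 and Btg2 rose 2.59-fold, 2.13-fold, 1.70-fold and 1.58-fold, but the cell-cycle inhibitor Cdkn1a and the p53 ligase Mdm2 fell to 90.8% and 80.9%. The fall of Cdkn1a was called in only 2 of the 8 fits that left out a sample, those without Parental sample 4 or ATP11A/C KD sample 1 (edgeR adjusted p = 0.0599 to 0.154 in the others). Of 14 genes of the BCL2 family, 4 fell (28.6%), or 2 without Parental sample 1 or ATP11A/C KD sample 3, and 3 rose (21.4%), or 5 without ATP11A/C KD sample 1, where 20.2% of all genes fell and 17.4% rose. Those that fell were the protective Bcl2 and Bcl2l1, at 66.2% and 68.7%, the protective Mcl1 (log2 -0.12) and the killer gene Bak1 (log2 -0.18). Those that rose were the killer genes Bmf and Bax, 2.49-fold and 1.15-fold, and the protective Bcl2a1d (log2 0.34), which shares 67.6% of its windows with other genes. The call of Mcl1 was lost under upper-quartile scaling, with no filter and without any 1 sample but ATP11A/C KD sample 2, and that of Bak1 without Parental sample 1 or ATP11A/C KD sample 2 or 3 (edgeR adjusted p = 0.0543 to 0.123 and edgeR adjusted p = 0.0524 to 0.0751). Of 27 immediate-early factors, 11 fell (40.7%) and 3 rose (11.1%). Dusp4, a phosphatase of the ERK pathway, fell to 31.4% and Atf3 to 53.7%, and Egr1 did not pass (log2 -0.01). Of 25 chemokine and cytokine receptors, 13 fell (52%) and 8 rose (32%). Csf1r was close to its Parental level (log2 -0.14). Its call was lost without Parental sample 1 or 2 or ATP11A/C KD sample 2 or 3 (edgeR adjusted p = 0.0529 to 0.0861). Csf3r and Cx3cr1 were 1.88-fold and 1.32-fold higher.

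The remaining lists were shorter accounts, beside 20.2% of all genes lower and 17.4% higher. Of 17 prostaglandin genes, 6 fell (35.3%) and 4 rose (23.5%), and apart from Hpgd none moved by 2-fold. Ptgs1 and Ptgs2, the cyclooxygenases, rose 1.18-fold and 1.28-fold, and the phospholipase Pla2g4a fell to 80.6%. Of 21 heparan sulfate and sulfotransferase genes, 10 fell (47.6%) and 5 rose (23.8%). Chst11, which sulfates chondroitin, fell from 1.65 to 0.328 CPM, and Ndst1 and Chst3 fell to 55.8% and 57.8%, while Chst1 was the member with the largest rise. Of 24 NRF2 targets, 7 fell (29.2%) and 4 rose (16.7%), with Nfe2l2 itself at 82.9%. Only 2 rose without Parental sample 3 or 4 or ATP11A/C KD sample 1. Among 8 lysozymes and antimicrobial genes, 4 fell and 2 rose (1 without Parental sample 4 or ATP11A/C KD sample 2), and the protease inhibitor Cst3 rose from 989 to 1313 CPM while its relative Cst7 fell from 7.11 to 4.21 CPM.

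Genes set apart in ATP11A/C KD were those that differed in the same direction from Parental, from CDC50A KD and from ORP5/8 KD. There were 99 higher (0.755% of genes tested) and 150 lower (1.14%). Without ATP11A/C KD sample 3 there were 65 and 97, and when each pair of groups was fitted on its own 64 and 93. The 3 comparisons share the ATP11A/C KD samples, so these counts are a description. At least 2-fold in all 3 were 6 higher and 4 lower, which are named here because of their values. The higher ones were Cntnap5c, Eda2r, Sfxn4, Il12rb2, Phlda3 and Epha2, and the lower ones Egln3, Cd93, Acsf2 and Atp11a itself. Il12rb2, at 0.553 CPM, was not called against Parental without Parental sample 1 or 3 or ATP11A/C KD sample 1, 2 or 4 (edgeR adjusted p = 0.0539 to 0.134). Epha2, an ephrin receptor kinase, stood at 2.15, 2.64, 2.26 and 2.45 CPM in ATP11A/C KD against 0.520, 1.12 and 0.332 CPM in Parental, CDC50A KD and ORP5/8 KD. Phlda3 stood at 4.55, 5.53, 4.04 and 5.72 CPM in Parental and at 12.2, 10.2, 9.17 and 10.6 CPM in ATP11A/C KD, with 3.63 ± 0.543 and 3.35 ± 0.288 CPM in CDC50A KD and ORP5/8 KD. Eda2r, a p53-induced receptor of the TNF family, rose from 1.70 to 4.39 CPM and was at 1.93 and 1.62 CPM in the other knockdowns. All ATP11A/C KD samples lay above all other samples for these 3 genes.

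Above 10 CPM, the genes set apart furthest on the high side were Phlda3, Ppm1e, Necap1, Epn2, Dst, Traf3ip3, Mbd6 and Zmat3. Necap1 and Epn2 encode adaptors of clathrin-coated vesicles, and rose 1.54-fold and 1.31-fold against Parental. Zmat3, an RNA-binding p53 target, stood at 92.5, 64.8, 83.7 and 81.01 CPM in ATP11A/C KD against 55.8 ± 1.19 CPM in Parental, 47.9 ± 3.90 in CDC50A KD and 63.9 ± 2.14 in ORP5/8 KD. Of the 25 p53 targets, 4 were set apart on the high side (Eda2r, Phlda3, Sesn2 and Zmat3). On the low side, next to Atp11a and Lyz1, were Cd24a, Basp1, Rrs1, Nxpe3, Tmsb10 and Bcap29. Cd24a, a mucin-like surface protein that binds Siglec receptors, stood at 16.4, 15.3, 16.8 and 18.3 CPM in Parental and at 5.05, 6.37, 5.50 and 4.16 CPM in ATP11A/C KD, with 10.2 ± 1.18 and 9.96 ± 1.24 CPM in the other knockdowns. Basp1, a membrane protein that gathers phosphoinositides, stood at 45.9, 52.2, 44.7 and 41.5 CPM in Parental and at 14.9, 13.9, 11.2 and 11.5 CPM in ATP11A/C KD, and its means were 20.05 in CDC50A KD and 19.97 CPM in ORP5/8 KD. Rrs1, a ribosome assembly factor, was 70.5 ± 2.76 CPM against 105 ± 5.21, 118 ± 6.75 and 107 ± 4.74 CPM in Parental, CDC50A KD and ORP5/8 KD, which sat close together.

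**Figure D5:**
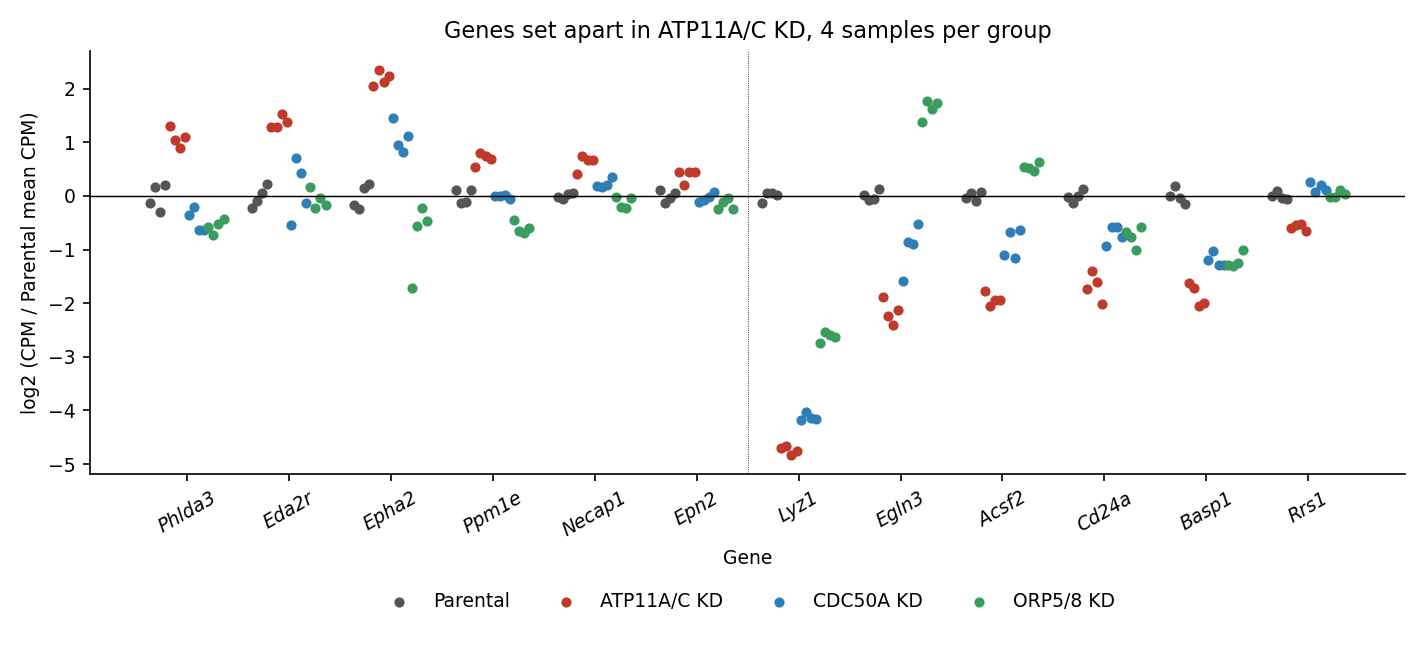
Level of 12 genes set apart in ATP11A/C KD in each of the 16 samples, as log2 of the CPM over the Parental mean, with colours for the 4 groups and a line at 0 for the Parental mean. The ATP11A/C KD points are the outermost in the 6 genes drawn on the left, which are higher, and in the 6 on the right, which are lower.

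Between the 2 flippase knockdowns, 1665 genes were higher in ATP11A/C KD (12.7%) and 1763 lower (13.5%). The lower count was 1118 without ATP11A/C KD sample 3 and 1169 without CDC50A KD sample 3. Against ORP5/8 KD 2678 were higher (20.4%) and 2392 lower (18.2%). Some genes that fell against Parental had differences near 0 from CDC50A KD, such as Flt1 (log2 -0.01 ± 0.071) and Ctsb (log2 -0.01 ± 0.037), and Msr1 had one near 0 from ORP5/8 KD (log2 -0.06 ± 0.061). None of these 3 differences passed the test. The mean of Igf2bp1 was lowest in Parental (0.764 CPM), and highest in CDC50A KD (15.1 CPM), with 10.4 CPM in ATP11A/C KD and 1.68 CPM in ORP5/8 KD. Dmwd, at 16.7 CPM in ATP11A/C KD and 6.07 in Parental, stood below the Parental mean in ORP5/8 KD (2.12 CPM).

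Markers of other cell types were at or near 0 in both groups, and those of macrophages were high. Of 10 macrophage markers, 9 were tested, 7 fell and 1, Adgre1, rose. Their summed level was 11661 to 12392 CPM in Parental and 6394 to 6762 CPM in ATP11A/C KD, most of it Lyz2. In bulk RNA, fewer cells of a kind and less RNA per cell cannot be told apart. All 5 epithelial markers were at 0 in both groups, as were 6 of 8 lymphocyte markers, Cd3e among them. Of 8 neutrophil and mast cell markers, 6 were at 0 in Parental and 7 in ATP11A/C KD, and of 8 fibroblast markers 7 and 6. The 6 dendritic markers summed to 1.62 to 2.49 CPM in Parental and 3.22 to 3.81 CPM in ATP11A/C KD, where Zbtb46 and Siglech rose to 2.56 and 0.704 CPM with Flt3 and Ccr7 at 0. Zbtb46 was not called without Parental sample 2 or 3 or ATP11A/C KD sample 1 (edgeR adjusted p = 0.0538 to 0.0677).

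The ATP11A/C KD samples differed more among themselves than the Parental samples did. Over genes, the chi-square per degree of freedom between pairs was 7.5 to 45.0 in ATP11A/C KD and 4.85 to 8.93 in Parental, so no 2 samples were duplicates, and the widest pair was samples 1 and 2 of ATP11A/C KD. Lars2, a mitochondrial leucine tRNA ligase, stood at 766, 276, 414 and 309 CPM in ATP11A/C KD and at 238, 297, 315 and 302 CPM in Parental. Its groups overlapped, with sample 1 of ATP11A/C KD the highest. It was called higher (edgeR adjusted p = 0.0441), but not by DESeq2, with the replicate block, with only the compared groups fitted, or without any 1 of the Parental samples or ATP11A/C KD sample 1 or 3 (edgeR adjusted p = 0.0541 to 0.372). In a principal component analysis of all 16 samples the first component held 30.8% and the second 28.5% of the variance, and Parental lay apart from all KD samples on the second.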

How the data were processed

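Poly(A) RNA of the 16 samples was sequenced as stranded, paired-end libraries. Per the submitters' processing notes, the authors used Trim Galore 0.5.0, STAR 2.7.5a, Picard and RSEM with the mm10 build, and they deposited 1 table of expected counts per gene, estimates in which reads that match several genes are shared out. The strand setting of the counting is not given in the sources used here. Of the values, 4.64% had decimals, and all were rounded to whole numbers. The 92 spike-in records, which held no counts, were dropped.

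Low genes were removed with filterByExpr at a minimum count of 10, and the rest were tested with edgeR 4.0.16 (R 4.3.3): quasi-likelihood fits on all 16 libraries, TMM scaling, Benjamini-Hochberg adjustment over 13107 genes, called at an adjusted p under 0.05. The fit had 12 residual degrees of freedom and a biological coefficient of variation of 6.86%. The procedure was tested on simulated counts. CPM values use the scaled library sizes. Log2 fold changes, and the counts of genes by 1.5-fold or 2-fold, use edgeR's fitted values. Percentages of Parental and folds of single genes are ratios of mean CPM. Positions come from GENCODE M21 (GRCm38), which held 55480 of 55573 gene identifiers. Biotypes are those given with the deposited counts, and promoters come from RefSeq. Sequence shared between genes was measured as the share of 75-base windows of the longest GENCODE transcript.

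Alternatives were RLE and upper-quartile scaling, no filter, a floor of 1 CPM in 4 libraries, DESeq2 1.42.0, fits on the compared groups alone, the replicate number as a block, and leaving out each library. Members and lists were chosen with earlier results of these data known. Named genes are the label's targets, the 15 largest fitted rises and falls and the 8 largest rises and falls in CPM among called protein-coding genes with at least 10 CPM in the higher group, at least 10 counts in the lower group and no overlap, the 8 genes set apart furthest on each side under the same conditions, genes at 0 in 1 group, and up to 5 called members per list with the smallest adjusted p. Other list members, Gm29216, Lars2 and the genes at least 2-fold apart in all 3 comparisons were picked after their values were seen. Some genes are not reported here.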

Additional observations from a re-analysis of the deposited data

Results flagged for a closer look

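In a group of 4, a sample was marked when its gap to the nearest other sample took up more of the group's range than Dixon's 95% critical value for 4 samples allows. Among 526 groups of 4 (the genes named in the text, with the mitochondrial and ribosomal protein shares, in Parental and in ATP11A/C KD), 19 were marked, 3.61%, where chance gives about 5%. The marked samples were spread over both groups, 9 in Parental and 10 in ATP11A/C KD.

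In ATP11A/C KD, sample 1 was the lowest for Tnf (49.7 CPM). It was the highest for Gm29216 (176 CPM), Gpnmb (666 CPM), Prr5 (13.4 CPM) and H2-Aa (0.0742 CPM, the only sample of the group with a count). Sample 2 was the lowest for Epn2 (14.7 CPM) and Lpl (638 CPM) and the highest for Cd80 (10.3 CPM) and Pdia3 (1466 CPM). Sample 3 was the lowest for Fcgr3 (11.8 CPM).

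In Parental, sample 2 was the highest for Hspa5 (2429 CPM), Creld2 (136 CPM) and Atp5o (189.4 CPM) and the lowest for Havcr2 (28.5 CPM). Sample 4 was the lowest for Cxcl10 (16.2 CPM) and B2m (819.9 CPM) and the highest for Csf3r (7.17 CPM). Sample 3 was the highest for Osbpl8 (346 CPM) and the lowest for Plxdc1 (13.6 CPM).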

How the results depend on the processing

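Counts of genes called against Parental stayed within 1.5 times under every alternative, from 1879 to 2786 higher and from 2326 to 2696 lower. At least 2-fold higher were 105 genes with a floor of 1 CPM against 188. Fits on the compared groups alone set apart 64 higher and 93 lower, against 99 and 150. Leaving out each library in turn gave 1118 to 1873 genes lower than in CDC50A KD, 65 to 137 set apart higher and 97 to 159 lower, and a mitochondrial share 0.298 to 0.437 percentage points above Parental. In the exact permutation test of that share, 2-sided p was 0.0571 without any 1 Parental sample and 0.0286 without any 1 ATP11A/C KD sample. The groups did not overlap in any of these fits, and the difference was 0.339 to 0.396 percentage points without a Parental sample. With so few ways to split the samples p moves in coarse steps, so it cannot show whether the result depends on the Parental samples. Upper-quartile scaling moved the median of all genes by 0.0244 (log2), and 53.5% of calls were then higher, against 46.2%. Of 236 called genes named in the text, 228 kept call and direction in every alternative that used all libraries, 219 when each library was left out, and none reversed. Those that lost the call in an alternative with all libraries were Atp10d, Calr, Cdkn1a, Gm29216, Il12rb2, Lars2, Mcl1 and Slc15a4. Of 80 counts of list members in 1 direction, 19 moved by more than 1.5 times in at least 1 alternative. Expected counts carry no error of the read assignment, so precision at low counts and in shared sequence is limited.

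Replicate numbers do not pair the samples: same-numbered Parental and ATP11A/C KD samples correlated by -0.0039, -0.133, 0.0685 and 0.0496 in their deviations from the group means. With the replicate number as a block, 2211 genes were higher and 2599 lower against Parental, and 104 were set apart higher and 140 lower.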

Other observations

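Calls were not spread evenly over the chromosomes. On chromosome 7, 22.5% of 1022 genes tested were higher and 15.3% lower (median log2 fold change 0.06), and on the X chromosome 12.5% of 408 were higher and 26.2% lower (median -0.04), against 17.4% and 20.2% of all genes. These are counts only, and no test was made of them.

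A range of more than 2-fold within a group, on the log2(CPM + 1) scale, was seen for 50 genes in ATP11A/C KD and 42 in Parental. Dpysl2, which encodes a tubulin-binding protein of neurites, stood at 33.6, 12.1, 24.9 and 24.7 CPM in ATP11A/C KD and at 33.9, 35.1, 36.3 and 35.4 CPM in Parental. Nectin1, an adhesion receptor, stood at 126, 58.3, 97.1 and 89.8 CPM in ATP11A/C KD. In both genes samples 1 and 2 lay at the ends of the range. mt-Co3 ran from 60.4 to 258 CPM in ATP11A/C KD and from 62.5 to 194 CPM in Parental.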
